A study of Mus musculus with 6 samples.

Results

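The WNT pathway was examined through 48 genes chosen by function, from the 56748 genes quantified in each uterus. They comprise 13 WNT ligands, *Porcn*, 10 frizzled receptors, the LRP co-receptors *Lrp5* and *Lrp6*, 9 secreted antagonists, 4 R-spondins, 3 LGR receptors, the ubiquitin ligases *Znrf3* and *Rnf43*, and the effectors or targets *Ctnnb1*, *Lef1*, *Tcf7* and *Axin2*. The choice rests on function and not on a threshold in the measured values. Of the 48, 39 were counted highly enough to be tested, and the other 9 are given by their counts.

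RNA of uterine tissue was sequenced from 3 control and 3 *Gp130* ecKO mice, collected at 1600 h on day 4 of pregnancy, shortly before embryos attach. The *Gp130* ecKO females carried *Gp130* flox/flox with *Ltf*-iCre in the heterozygous state, and the control females are labelled WT. The strain is labelled C57BL/6, and the study's methods give the background as C57BL/6J. In the study's methods, controls are floxed females without iCre or wildtype females, and which of these each control was is not given in the sources used here. The tissue is labelled uterus, and the series' design text calls it endometrium. Females of both groups were sexually mature, over 8 weeks old, and had been mated with wildtype males. *Gp130* (gene symbol *Il6st*) encodes the shared signal transducer of the interleukin 6 family, which includes leukemia inhibitory factor. *Ltf*-iCre acts in uterine epithelium, and *Ltf* is also active in some neutrophils and macrophages, while stroma, muscle and vessels keep the gene. Nothing in the labels ties a sample to a litter or a day, so p-values measure the spread between these 6 uteri.

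WNT proteins are secreted lipid-modified ligands. Those of the canonical branch bind a frizzled receptor together with LRP5 or LRP6, stabilize beta-catenin and switch on genes with TCF/LEF factors, whereas others act on cell polarity and movement. R-spondins bound to LGR receptors remove the ligases ZNRF3 and RNF43, which would otherwise clear frizzled receptors from the membrane. In the mouse uterus the pathway is known for gland formation, for signals between epithelium and stroma, and for the response to the embryo.

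The comparison asks how these genes differ between uteri with and without epithelial *Gp130*. Values per uterus are CPM (counts relative to the library total, with TMM scaling by edgeR) and are listed in the order uterus 1, 2 and 3. Levels of different genes are compared as deposited TPM (transcripts relative to all transcripts), which take gene length into account. Fold changes are log2 values of *Gp130* ecKO against control with their standard error (SE), from edgeR's quasi-likelihood test over 16605 genes with Benjamini-Hochberg adjustment over all of them.

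No member passed an adjusted p of 0.05 with more than a 2-fold change, a rule that 26 genes passed, or 0.157% of all tested. At an unadjusted p under 0.05, 15 of the 39 tested members passed, 4 higher and 11 lower in *Gp130* ecKO, which is 38.5% against 25.0% of all tested genes. By direction the background was 12.1% higher and 12.9% lower. DESeq2, under the same adjusted p and fold rule, called 9 members, against 9.29% of all tested genes, with 2 higher (background 4.42%) and 7 lower (4.87%), and edgeR's exact test called 8 against 7.46%. In 14 tested members every *Gp130* ecKO uterus lay beyond every control, against 31.3% of all tested genes, with 6 higher (15.7%) and 8 lower (15.6%), so this count is close to its background. The median log2 fold change of the tested members was -0.35, with 23 below 0 and 16 above, and that of all tested genes was -0.05. At the unadjusted p the 11 lower members became 5 without control 1 and 7 without *Gp130* ecKO 3, and the 4 higher members became 2 without control 3 or without *Gp130* ecKO 1. Shares of all tested genes are not given for these fits. A drop in these counts is therefore not read as particular to the members.

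**Figure D1:**
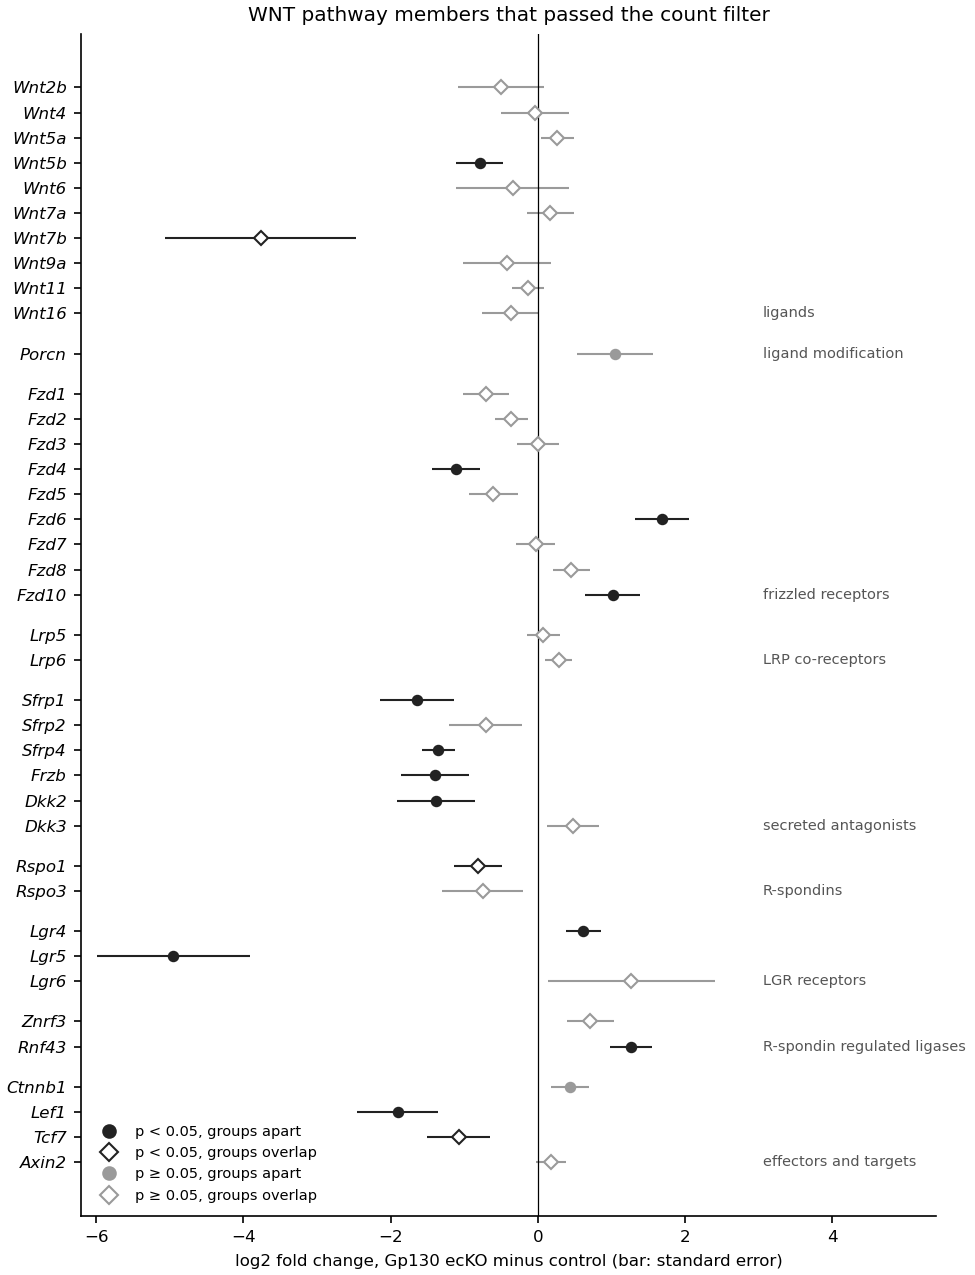
Log2 fold change (horizontal axis, *Gp130* ecKO minus control) of the 39 tested members, ordered by role, with bars of 1 SE. Filled circles mark members whose groups did not overlap, diamonds those whose groups did, and dark symbols an unadjusted p under 0.05. *Lgr5* and *Wnt7b* lie farthest to the left and *Fzd6* farthest to the right.

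Total counts per uterus ranged from 13960748 in control 3 to 25906443 in control 2. In a multidimensional scaling of all genes control 2 stood between the groups, at 0.03 on the leading axis, while controls 1 and 3 were at 2.09 and 2.08 and the *Gp130* ecKO uteri at -1.47 to -1.32. Without control 2 the quasi-likelihood test called 5 members, *Wnt7b*, *Fzd6*, *Sfrp4*, *Lgr5* and *Rnf43*, against 5.23% of all tested genes. The targeted gene *Il6st* was at 631, 678 and 452 CPM among controls and 388, 349.8 and 362 among *Gp130* ecKO uteri, lower in each of the latter (log2 fold change -0.68, SE 0.21, adjusted p = 0.120). These counts span the whole gene, including parts the deletion leaves.

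Sums of cell type marker genes were also unequal between the groups. The 6 epithelial markers summed to 2574, 2709 and 1806 CPM among controls and 5441, 3948 and 4255 among *Gp130* ecKO uteri, higher in every one, and 4 of the 6, *Cdh1*, *Krt7*, *Krt8* and *Krt19*, did not overlap. *Krt18* overlapped (log2 fold change 0.74), and *Epcam* had a negative estimate, at 649.5, 379 and 348 CPM among controls and 429, 363 and 414 among *Gp130* ecKO uteri (log2 fold change -0.19, SE 0.27). The 8 stromal markers summed to 3282, 4311 and 3527 CPM among controls and 2037, 2475 and 2542 among *Gp130* ecKO uteri, lower in every one, and 5 of the 8 did not overlap. Of the endothelial markers 4 of 5 did not overlap and were lower, with sums of 820.1, 576 and 342 CPM among controls and 185, 332 and 264 among *Gp130* ecKO uteri. Smooth muscle markers, which are active in the muscle wall outside the endometrium but not shown here to be limited to it, were present in every sample. Their sums overlapped but ranged widely, from 453 to 1941 CPM in controls and from 344 to 2233 CPM in *Gp130* ecKO. Sums of the glandular, macrophage, neutrophil and mesothelial lists overlapped between groups, and *Gp130* ecKO 1 had the highest glandular sum at 8684 CPM. Of the 4 neutrophil markers, *S100a8* and *S100a9* were low in every uterus but did not overlap. *S100a8* was at 21, 20 and 6 counts among controls and 0, 2 and 3 among *Gp130* ecKO uteri. *S100a9* was at 60, 62 and 15 counts among controls and 0, 0 and 13 among *Gp130* ecKO uteri (no test is read from either, as they reached the filter through the controls). *Ly6g* overlapped with a positive estimate (log2 fold change 1.08), and *Camp* was at 0 in all uteri but 1. *Ovgp1*, an oviduct secretory glycoprotein, was at 47.9, 85.3 and 50.6 CPM among controls and 615, 1193 and 552 among *Gp130* ecKO uteri (adjusted p = 0.0377), and the ciliated cell marker *Foxj1* was at 0.445, 0.540 and 0.200 CPM among controls and 1.72, 0.423 and 3.32 among *Gp130* ecKO uteri, where the groups overlapped (log2 fold change 2.11, unadjusted p 0.0295, adjusted p 0.160). Fewer cells of a type and less RNA per cell cannot be told apart in bulk tissue, and the part of these differences in the member values was not tested.

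**Figure D2:**
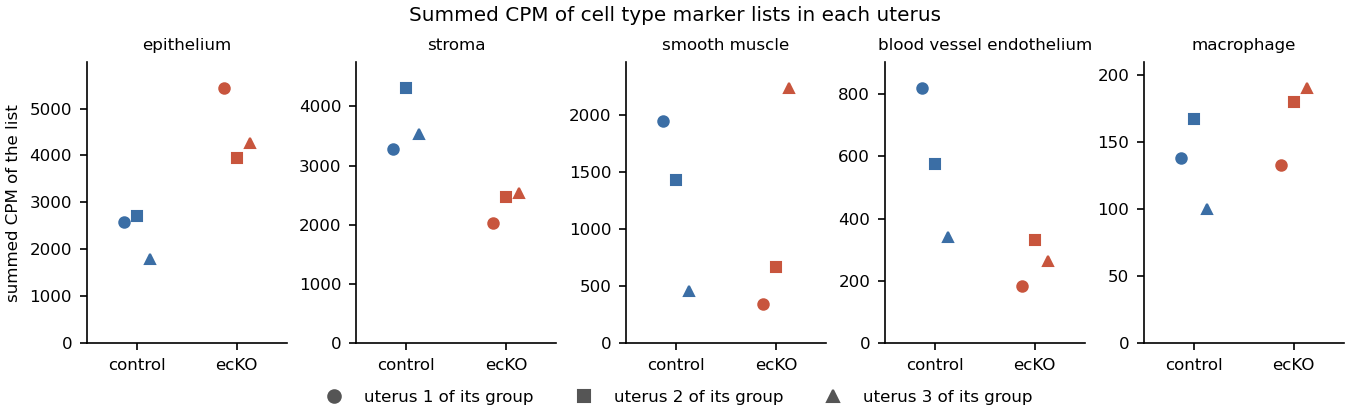
Summed CPM of 5 marker lists (vertical axes, linear and starting at 0), with 1 symbol per uterus. The epithelial sums of the 3 *Gp130* ecKO uteri lie above, and their stromal and endothelial sums below, those of the 3 controls, while smooth muscle and macrophage sums overlap.

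Among the ligands, 10 of 13 were tested, 2 had an unadjusted p under 0.05, both lower (25.0% of all tested genes passed in either direction and 12.9% lower), and the most abundant ligands overlapped between the groups. *Wnt11*, which acts mainly in cell movement and polarity, had the highest mean level of all ligands at 119 TPM, with 120.3, 148 and 101 TPM in controls and 132, 124 and 89.1 TPM in *Gp130* ecKO. It was the most abundant ligand in 5 of 6 uteri. *Wnt5a*, a non-canonical ligand, followed with 57.8, 90.6 and 67.8 TPM in controls and 99.8, 109.8 and 64.5 TPM in *Gp130* ecKO, a range that overlapped that of *Wnt11*. The epithelial ligand *Wnt7a* was at 57.6, 33.4 and 64.3 TPM in controls and 74.8, 52.0 and 30.0 TPM in *Gp130* ecKO, and overlapped *Wnt5a*. Log2 fold changes of these 3 genes were -0.14 (SE 0.22), 0.26 (SE 0.23) and 0.17 (SE 0.32), with the smallest unadjusted p at 0.284. The sign for *Wnt11* turned without control 2 and that for *Wnt7a* without *Gp130* ecKO 1.

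*Wnt7b*, a ligand of epithelial cells with canonical activity, varied most among the ligands. At chr15:85419638-85466674 it was counted at 313, 5.78 and 33.7 CPM among controls and 4.88, 6.54 and 14.4 among *Gp130* ecKO uteri. Control 1 was far above all other uteri and control 2 lay inside the *Gp130* ecKO range, so the groups overlapped. In control 1 *Wnt7b* reached 124 TPM, the highest ligand level in that uterus. The estimate, as a log2 fold change, was -3.77 (SE 1.296), with an unadjusted p of 0.0213 and an adjusted p of 0.141. DESeq2 gave an adjusted p of 0.0497. Without control 1 the estimate shrank to -1.14, and without control 2 it was -4.30 with an adjusted p of 0.0473. Over all alternatives the adjusted p of *Wnt7b* ranged from 0.0284 to 0.425.

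*Wnt5b*, a close relative of *Wnt5a*, was the only tested ligand whose groups did not overlap. The 3 controls were close together at 5.54, 5.67 and 5.20 CPM, and the *Gp130* ecKO uteri were at 2.40, 4.19 and 2.86 CPM. Each *Gp130* ecKO uterus was thus below each control, with a log2 fold change of -0.79 (SE 0.32, unadjusted p 0.0418, adjusted p 0.185). The gene *Fbxl14* overlaps *Wnt5b* on the opposite strand and was at 38.1 to 45.9 CPM, far above *Wnt5b*. The libraries kept strand, but whether strand was used in counting is not stated, so the *Wnt5b* values are uncertain to that extent. The other 9 tested ligands overlapped. *Wnt2b*, *Wnt4*, *Wnt6*, *Wnt9a* and *Wnt16* were low, with means of 1.84 to 4.15 TPM over the 6 uteri, and their log2 fold changes ran from -0.50 to -0.04 with SE of 0.38 to 0.77. *Wnt2*, *Wnt10a* and *Wnt10b* were under the filter, with at most 19 counts in any uterus.

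*Porcn* encodes the acyltransferase of the endoplasmic reticulum that attaches the lipid every WNT protein needs for secretion. It was counted at 25.1, 52.8 and 9.67 CPM among controls and 57.1, 60.2 and 64.3 among *Gp130* ecKO uteri. The *Gp130* ecKO uteri were close together and just above control 2, while controls 1 and 3 were lower. The estimate, as a log2 fold change, was 1.05 (SE 0.52, unadjusted p 0.0795, adjusted p 0.248), and it was 1.82 without control 2 (adjusted p = 0.0530). Over all alternatives its adjusted p ranged from 0.0530 to 0.419.

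**Figure D3:**
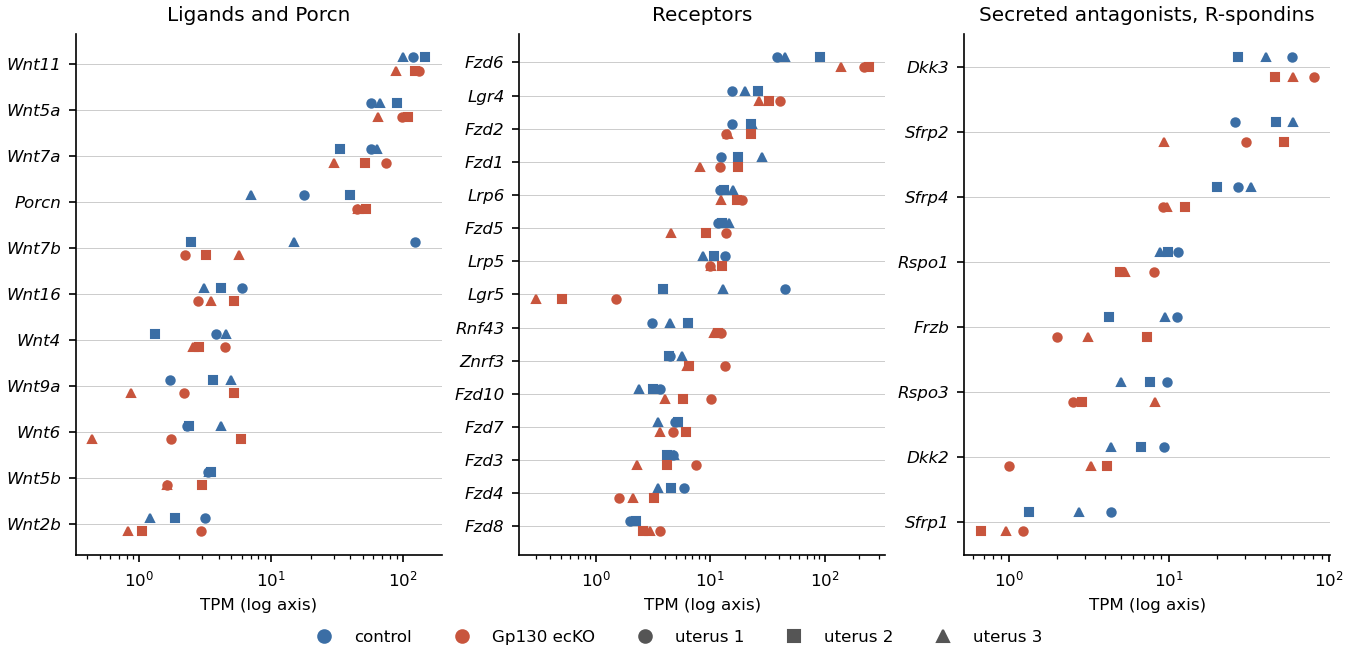
TPM (horizontal axes, log scale) of the ligands and *Porcn*, the receptors and ligases, and the antagonists and R-spondins with a mean of at least 0.5 TPM, with 1 symbol per uterus. Blue control and red *Gp130* ecKO symbols are apart for *Fzd6* and *Sfrp4* and mixed for *Wnt11*, *Wnt5a* and *Wnt7a*.

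The frizzled receptors went in both directions, with *Fzd6* and *Fzd10* higher and *Fzd4* lower at an unadjusted p under 0.05 among 9 tested, against 12.1% higher and 12.9% lower of all tested genes. *Fzd6*, a receptor tied to planar cell polarity, lies at chr15:38869243-38901584. It was the most abundant frizzled at a mean of 129 TPM, above *Fzd2* at 18.8 TPM in every uterus. Its counts were 123, 283 and 126 CPM among controls and 624, 632 and 455 among *Gp130* ecKO uteri, so the lowest *Gp130* ecKO uterus was above the highest control. The log2 fold change of *Fzd6* was 1.68 (SE 0.36, unadjusted p 0.00199, adjusted p 0.0767), and DESeq2 gave 1.70 (adjusted p = 4.75e-04). Control 2 was the highest control, and without it the quasi-likelihood adjusted p was 0.0112 and the log2 fold change 2.23. Over all alternatives the adjusted p ranged from 4.75e-04 to 0.228.

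*Fzd4*, a receptor used by vascular cells and bound by norrin as well as by WNT proteins, went the other way. It was at 32.0, 23.2 and 16.9 CPM among controls and 7.60, 14.2 and 11.4 among *Gp130* ecKO uteri, with all 3 of the latter under the lowest control. The log2 fold change was -1.12 (SE 0.33, unadjusted p 0.0105, adjusted p 0.113), the DESeq2 adjusted p was 0.0272, and over all alternatives it ranged from 0.0272 to 0.3001. The endothelial marker sums were lower in the same uteri. Per 1000 CPM of that sum *Fzd4* overlapped, as did each of the 8 members that were lower in every *Gp130* ecKO uterus and all but 2.71% of such genes, and it overlapped per stromal sum too.

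*Fzd10* was at 9.39, 7.67 and 5.53 CPM among controls and 23.2, 12.2 and 10.4 among *Gp130* ecKO uteri, with the groups apart (log2 fold change 1.02, SE 0.38, unadjusted p 0.0290, adjusted p 0.159). Without *Gp130* ecKO 1, the highest uterus, the log2 fold change was 0.59. Its antisense gene *Fzd10os* carried 42.4% of the *Fzd10* CPM and was also highest in *Gp130* ecKO 1, at 11.9 CPM, and whether strand was used in counting is not stated in the sources used here; without strand, reads of the 2 genes cannot be told apart. *Fzd2*, the next most abundant frizzled by mean TPM, was at 45.6, 63.1 and 60.3 CPM among controls and 35.3, 54.6 and 41.7 among *Gp130* ecKO uteri, and overlapped. By TPM *Fzd1* was above *Fzd2* in control 3, and *Fzd5* was in *Gp130* ecKO 1. *Fzd1*, *Fzd3*, *Fzd5*, *Fzd7* and *Fzd8* overlapped by CPM too, with log2 fold changes from -0.71 (*Fzd1*, unadjusted p 0.0552) to 0.45 (*Fzd8*, unadjusted p 0.111). By TPM *Fzd8* was apart, at 2, 2.23 and 2.21 in controls and 3.67, 2.57 and 3 in *Gp130* ecKO. The log2 fold change of *Fzd3* was near 0 and changed sign under upper quartile scaling, at -0.08. This scaling moved the median of all tested genes from -0.05 to -0.11, so the sign change says nothing about *Fzd3* itself. *Fzd9* was under the filter with 5, 6 and 4 counts in controls and 1, 3 and 2 counts in *Gp130* ecKO.

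The LRP co-receptors, which carry the canonical signal together with a frizzled, overlapped between the groups. *Lrp6* was at 67.0, 66.0 and 68.3 CPM among controls and 96.0, 85.1 and 63.5 among *Gp130* ecKO uteri (log2 fold change 0.28, SE 0.19). *Lrp5* was at 43.8, 36.9 and 26.3 CPM among controls and 32.1, 40.2 and 40.5 among *Gp130* ecKO uteri (log2 fold change 0.07, SE 0.23). Their mean levels were close, 15.0 TPM for *Lrp6* and 11.0 TPM for *Lrp5*.

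Of the 9 secreted antagonists 6 were tested. By CPM 4 of them, *Sfrp1*, *Sfrp4*, *Frzb* and *Dkk2*, were lower in every *Gp130* ecKO uterus than in any control. So were 15.6% of all tested genes. *Sfrp4*, a secreted frizzled-related protein of the endometrial stroma, had the smallest quasi-likelihood p of all members. *Lgr5* had a smaller adjusted p than *Sfrp4* with DESeq2 (4.00e-07) and with edgeR's exact test (2.19e-04 against 3.29e-04). At chr13:19807274-19817164 *Sfrp4* was counted at 34.0, 25.2 and 35.1 CPM among controls and 10.6, 13.9 and 12.4 among *Gp130* ecKO uteri. Both groups were tight, and the lowest control was well above the highest *Gp130* ecKO uterus. Its log2 fold change was -1.35 (SE 0.22, unadjusted p 4.04e-04, adjusted p 0.0594), and DESeq2 gave -1.34 with an adjusted p of 1.20e-05. With any uterus left out the log2 fold change stayed between -1.45 and -1.25, and the adjusted p was 0.0254 without control 2. Over all alternatives the adjusted p of *Sfrp4* ranged from 1.20e-05 to 0.180.

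*Sfrp1*, another frizzled-related protein that binds WNT ligands outside the cell, was counted at 15.2, 4.47 and 8.60 CPM among controls and 3.80, 1.92 and 3.36 among *Gp130* ecKO uteri. Control 2 was just above the highest *Gp130* ecKO uterus. On the log2 scale the difference was -1.64 (SE 0.50, unadjusted p 0.0129, adjusted p 0.119), and -1.07 without control 1, the highest uterus. Its adjusted p was 0.0233 with DESeq2 and 0.0493 with edgeR's exact test, and ranged up to 0.275 over all alternatives. *Dkk2*, which binds LRP co-receptors, was at 27.5, 18.7 and 11.3 CPM among controls and 2.62, 9.92 and 9.53 among *Gp130* ecKO uteri. The gap between control 3 and *Gp130* ecKO 2 was small (log2 fold change -1.38, SE 0.53, unadjusted p 0.0339, adjusted p 0.169), and without *Gp130* ecKO 1 the log2 fold change was -0.98.

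*Frzb* encodes the frizzled-related protein SFRP3, and lies at chr2:80242313-80278304 on the minus strand. It was counted at 23.6, 9.68 and 14.3 CPM among controls and 3.66, 9.38 and 4.97 among *Gp130* ecKO uteri, and control 2 and *Gp130* ecKO 2 nearly met. By TPM the groups overlapped, with control 2 at 4.21 and *Gp130* ecKO 2 at 7.27. The log2 fold change was -1.40 (SE 0.46, unadjusted p 0.0177, adjusted p 0.131), moving to -1.87 without *Gp130* ecKO 2 and to -0.96 without control 1. Its DESeq2 adjusted p was 0.0370, the lowest over all alternatives, and the highest was 0.330. *Frzb* was the only member whose promoter window held both motifs that were searched and found among the members, the TCF/LEF core and the STAT site, which are explained beside the *Lef1* sequence. The 30 bases that hold them are shown for this reason. They lie at chr2:80277811-80277840 (GRCm39, minus strand), 100 to 71 bases before a RefSeq start site and inside the gene as GENCODE M39 draws it, with both motifs in capitals.
Frzb: aaaacTCAAAGccTTCTCGGAAggaggagc

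*Dkk3*, a relative of the DKK family with little effect on LRP, had the highest mean of the antagonists at 52.0 TPM and was the only tested antagonist with a positive estimate. It was at 157, 68.7 and 95.3 CPM among controls and 189, 99.99 and 157 among *Gp130* ecKO uteri, and overlapped (log2 fold change 0.47, SE 0.35). *Sfrp2*, with a mean of 37.4 TPM, was above *Dkk3* in 3 of 6 uteri by TPM, controls 2 and 3 and *Gp130* ecKO 2. It was at 40.5, 67.4 and 81.1 CPM among controls and 39.9, 61.3 and 14.3 among *Gp130* ecKO uteri, and overlapped as well (log2 fold change -0.71, SE 0.50). *Gp130* ecKO 1 had the highest *Dkk3* value and *Gp130* ecKO 3 the lowest *Sfrp2* value of all uteri. *Sfrp5* and *Wif1* were under the filter with at most 4 counts in any uterus. *Dkk1* had 0 counts in all 6 uteri, which allows up to 3 counts in each library by counting error alone.

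R-spondins amplify WNT signals by way of LGR receptors. *Rspo1*, with the highest mean of them at 8.08 TPM but below *Rspo3* in *Gp130* ecKO 3, was at 15.5, 12.5 and 8.47 CPM among controls and 8.73, 5.31 and 6.84 among *Gp130* ecKO uteri. Control 3 was just below *Gp130* ecKO 1, so the groups overlapped by CPM in this gene (log2 fold change -0.81, SE 0.32, unadjusted p 0.0395, adjusted p 0.180). By TPM they were apart, at 11.35, 9.88 and 8.88 in controls and 8.07, 4.96 and 5.33 in *Gp130* ecKO. *Rspo3* was at 23.7, 17.7 and 10.9 CPM among controls and 5.47, 5.73 and 19.9 among *Gp130* ecKO uteri, and *Gp130* ecKO 3 lay within the control range (log2 fold change -0.75, SE 0.55). *Rspo2* and *Rspo4* were under the filter. *Rspo2* had 1, 8 and 1 counts in controls and 0 in each *Gp130* ecKO uterus, and *Rspo4* had 6, 12 and 4 counts in controls and 1, 3 and 1 counts in *Gp130* ecKO. Both were lower in every *Gp130* ecKO uterus, at a depth where a count of 0 allows up to 3 counts per library.

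The LGR receptors diverged. *Lgr5*, known as a stem cell marker and WNT target in epithelia, had the largest estimate of all members. At chr10:115286216-115423685 it was counted at 164, 12.4 and 39.7 CPM among controls and 4.34, 1.58 and 1.12 among *Gp130* ecKO uteri, or 4062, 321 and 595 counts against 96, 41 and 27. The lowest control was above the highest *Gp130* ecKO uterus, and the controls themselves differed widely, in the order control 1, 3 and 2 that *Wnt7b* had. The estimate, as a log2 fold change, was -4.95 (SE 1.04, unadjusted p 0.00173, adjusted p 0.0751). DESeq2 gave -4.94 with an adjusted p of 4.00e-07, and edgeR's exact test an adjusted p of 2.19e-04. Without control 1 the log2 fold change was -3.44, and without control 2 it was -5.43 with an adjusted p of 0.0194. Over all alternatives the adjusted p of *Lgr5* ranged from 4.00e-07 to 0.190.

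*Lgr4*, the widely active LGR receptor, was more abundant than *Lgr5* on average, at 27.0 against 10.7 TPM. It was counted at 61.6, 100.2 and 71.1 CPM among controls and 147, 106 and 105 among *Gp130* ecKO uteri. All *Gp130* ecKO uteri were above the controls, but *Gp130* ecKO 2 and 3 exceeded control 2 only slightly (log2 fold change 0.62, SE 0.24, unadjusted p 0.0331, adjusted p 0.167). In control 1 *Lgr5* was above *Lgr4*, at 44.9 against 15.5 TPM, and in all other uteri it was below. *Lgr6* was near the filter at 0.136 to 6.09 CPM, and its estimate of 1.27 (SE 1.14) rested on *Gp130* ecKO 3, since it was -1.19 without that uterus.

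The membrane ligases that R-spondins remove were both higher on average. *Rnf43*, at chr11:87553548-87626377, was counted at 9.02, 18.4 and 11.7 CPM among controls and 32.5, 28.7 and 32.3 among *Gp130* ecKO uteri. The 3 *Gp130* ecKO uteri were within a narrow range and all above control 2, the highest control. The estimate, as a log2 fold change, was 1.26 (SE 0.28, unadjusted p 0.00269, adjusted p 0.0821), the DESeq2 adjusted p was 0.00230, and without control 2 the quasi-likelihood adjusted p was 0.0217. Over all alternatives the adjusted p of *Rnf43* ranged from 0.00230 to 0.244. *Znrf3* was at 21.6, 20.1 and 24.4 CPM among controls and 54.5, 23.8 and 29.6 among *Gp130* ecKO uteri. *Gp130* ecKO 1 was highest and *Gp130* ecKO 2 lay just under control 3, so the groups overlapped by CPM (log2 fold change 0.71, SE 0.32, unadjusted p 0.0584). By TPM they were apart, at 4.47, 4.37 and 5.71 in controls and 13.36, 6.53 and 6.34 in *Gp130* ecKO.

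Among the effectors, the TCF/LEF factors were low in *Gp130* ecKO 1 and 3. *Lef1*, a nuclear partner of beta-catenin that is itself a WNT target, was counted at 50.7, 41.1 and 91.5 CPM among controls and 11.6, 30.0 and 7.17 among *Gp130* ecKO uteri. *Gp130* ecKO 2 was the nearest to the controls and control 3 the farthest from *Gp130* ecKO. The log2 fold change of *Lef1* was -1.91 (SE 0.55, unadjusted p 0.00973, adjusted p 0.112), and the DESeq2 adjusted p was 0.00937. It moved to -2.70 without *Gp130* ecKO 2 and to -1.50 without control 3, and over all alternatives the adjusted p ranged from 0.00937 to 0.301. *Tcf7*, the related factor TCF1, was at 25.8, 21.9 and 32.7 CPM among controls and 8.54, 22.0 and 7.54 among *Gp130* ecKO uteri. *Gp130* ecKO 2 reached the level of control 2, so the groups overlapped (log2 fold change -1.07, SE 0.43, unadjusted p 0.0387, adjusted p 0.179), and without that uterus the log2 fold change was -1.73.

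*Axin2*, a feedback inhibitor and widely used readout of canonical signaling, was at 20.6, 22.6 and 30.9 CPM among controls and 28.2, 28.4 and 27.0 among *Gp130* ecKO uteri. The *Gp130* ecKO values were almost equal and lay within the control range (log2 fold change 0.18, SE 0.21, unadjusted p 0.423). *Ctnnb1*, which encodes beta-catenin and also serves in adherens junctions, was the most abundant member at 568 TPM. It was counted at 965, 913 and 627 CPM among controls and 1318, 1054 and 1013 among *Gp130* ecKO uteri. By CPM each of the latter was above each control (log2 fold change 0.43, SE 0.26, unadjusted p 0.133). By TPM the groups overlapped, with control 1 at 571 and *Gp130* ecKO 3 at 538. For every member whose groups did not overlap, a two-sided exact test permuting the uteri, on log2(CPM + 0.5), gave p = 0.1, the smallest that 3 against 3 uteri allow.

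**Figure D4:**
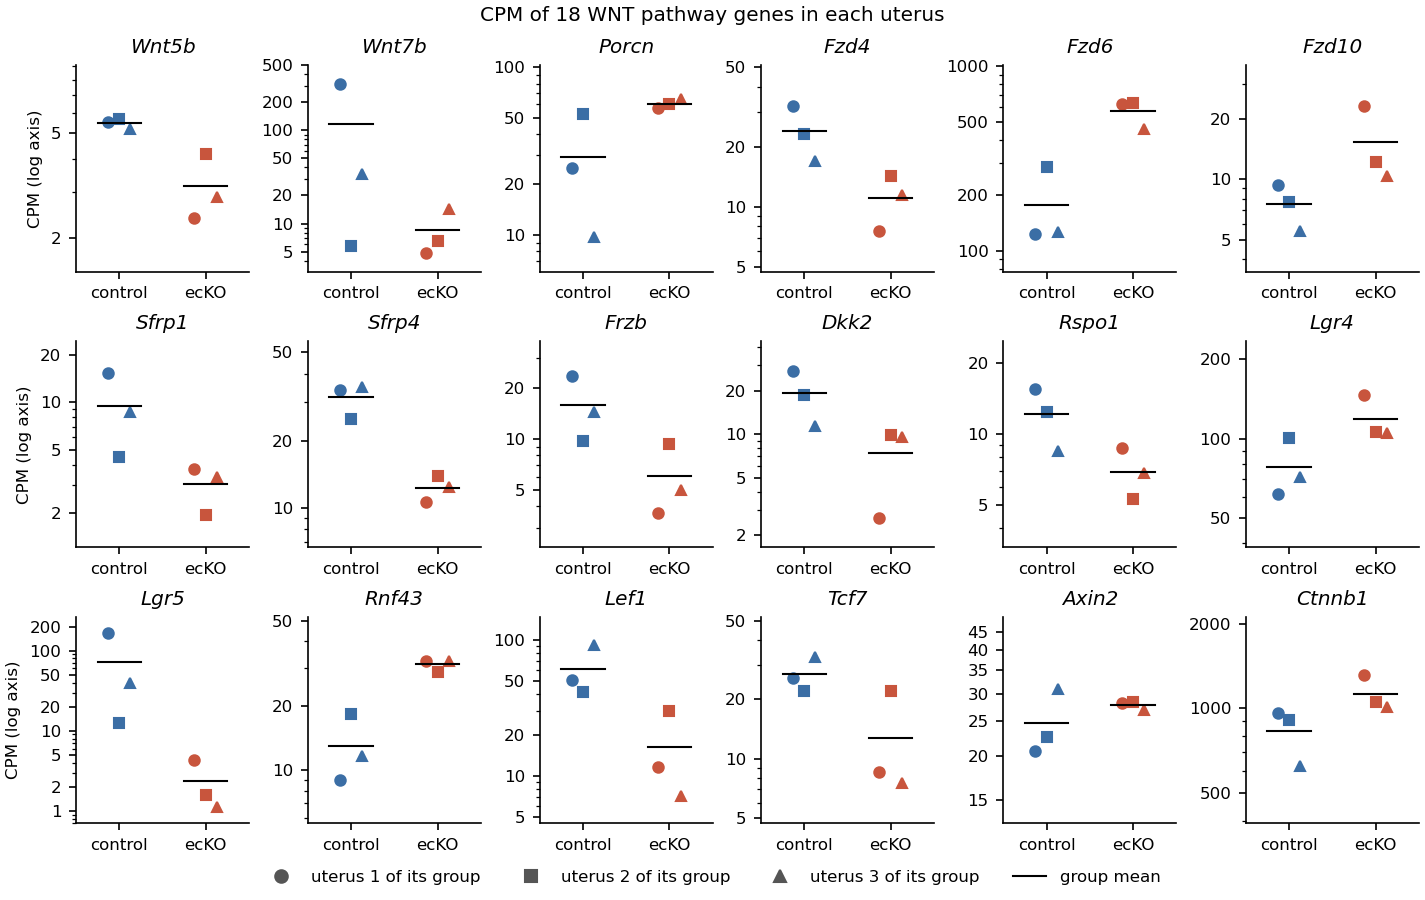
CPM per uterus (vertical axes, log scale, each gene with its own range) of 18 members in the 3 control (blue) and 3 *Gp130* ecKO (red) uteri, with lines at the group means. Groups are apart for *Fzd6*, *Sfrp4*, *Lgr5*, *Rnf43* and *Lef1*, and overlap for *Wnt7b*, *Rspo1*, *Tcf7* and *Axin2*.

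Promoter sequences of RefSeq (GRCm38.p6 table) were found for 31 of the 48 members, and 250 bases before each start were searched. The TCF/LEF core was searched as CTTTGA, or TCAAAG on the other strand, the STAT site, the letters bound by factors that act downstream of gp130, as TTCNNNGAA, which reads alike on both strands, and the oestrogen response element by its palindromic consensus, also alike on both. The letters of the TCF/LEF core and the STAT site were allowed to overlap each other. The TCF/LEF core was in 6 of the 31 members (19.4%) and in 15.8% of all genes with such windows, or 13.8% of all windows. The STAT site was in 2 of 31 (6.45%), *Frzb* and *Wnt5b*, and in 8.13% of all genes or 7.02% of windows. The oestrogen response element was in 0 of 31 members and 0.0639% of all windows. A match gives letters in a window and was not tested as a binding site.

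Sequences are shown for 3 members with a match in a window free of exons in GENCODE M39. All are 250 bases long and end at the base before a RefSeq start, with the matches in capitals. That of *Lef1* lies before an internal start within an intron at chr3:130949693-130949942 (plus strand, GRCm39) and holds the TCF/LEF core at 2 places, and it is shown because *Lef1* was apart between the groups. That of *Wnt11*, the most abundant ligand, ends just before the gene, inside *Gm33770* on the other strand, at chr7:98484069-98484318 (plus strand) and holds 1 TCF/LEF core. That of *Wnt5b*, the ligand whose groups were apart, lies in an intron at chr6:119444173-119444422 (minus strand) and holds the STAT site. The start behind the *Lef1* sequence lies 46024 bases inside the gene. *Lef1* windows with starts 27, 53 and 2521 bases inside held 0 matches. The start behind the *Wnt5b* sequence lies 77725 bases inside the gene. The *Wnt5b* window at 589 bases held 0 matches, and that at 95550 bases held a TCF/LEF core and 0 STAT sites.
Lef1: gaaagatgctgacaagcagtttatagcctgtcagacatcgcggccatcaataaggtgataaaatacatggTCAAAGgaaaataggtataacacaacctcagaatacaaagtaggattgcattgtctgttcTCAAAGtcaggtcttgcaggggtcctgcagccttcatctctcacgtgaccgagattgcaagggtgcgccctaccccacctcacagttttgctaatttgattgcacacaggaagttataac
Wnt11: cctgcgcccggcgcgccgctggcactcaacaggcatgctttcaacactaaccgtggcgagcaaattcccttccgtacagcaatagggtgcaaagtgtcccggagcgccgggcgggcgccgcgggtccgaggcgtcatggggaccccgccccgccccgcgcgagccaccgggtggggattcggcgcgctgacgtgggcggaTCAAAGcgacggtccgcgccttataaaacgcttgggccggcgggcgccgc
Wnt5b: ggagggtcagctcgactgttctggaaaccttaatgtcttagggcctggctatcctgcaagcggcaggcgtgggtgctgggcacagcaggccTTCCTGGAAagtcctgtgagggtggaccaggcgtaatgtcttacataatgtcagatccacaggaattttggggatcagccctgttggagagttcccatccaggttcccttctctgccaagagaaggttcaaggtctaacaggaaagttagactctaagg

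Member values were also set against the marker sums, a scale chosen after the data were seen. The epithelial sum was higher, and the stromal and endothelial sums lower, in every *Gp130* ecKO uterus. Division by these sums can only widen a difference that runs the other way. For these sums, therefore, only members that moved with the sum are described. *Epcam* alone and the smooth muscle sum overlapped between the groups, and on those scales all 14 members apart in CPM are covered. Per 1000 CPM of epithelial markers, of the 6 members that were higher in every *Gp130* ecKO uterus only *Fzd6* stayed above the controls. Of all tested genes that were higher in every *Gp130* ecKO uterus, 10.5% did so. *Fzd6* was then at 47.9, 104 and 69.8 in controls and 115, 160.1 and 107 in *Gp130* ecKO, a narrower gap than in CPM. *Porcn*, *Fzd10*, *Lgr4* and *Rnf43* overlapped on this scale, and *Ctnnb1* was lower, at 375, 337 and 347 in controls and 242, 267 and 238 in *Gp130* ecKO. The epithelial sum includes *Krt8* and *Cdh1*, whose proteins the study reports at higher levels in *Gp130* ecKO epithelium by staining. How far this sum follows the amount of epithelium was not tested. Because *Epcam* did not move with the other epithelial markers, the members were also set against *Epcam* alone. On that scale 4 of the 6 higher members stayed higher, *Fzd6*, *Fzd10*, *Rnf43* and *Ctnnb1*, and *Porcn* and *Lgr4* overlapped, a share near the 70.7% of all such genes. Of the 8 lower members 5 stayed lower, *Fzd4*, *Sfrp1*, *Sfrp4*, *Dkk2* and *Lgr5*, while *Wnt5b*, *Frzb* and *Lef1* overlapped, and of all tested genes that were lower 36.6% stayed lower. *Ctnnb1* was thus lower per epithelial sum and higher per *Epcam*, so its side depends on which epithelial markers set the scale. Per 1000 CPM of stromal markers *Lgr5* and *Sfrp4* alone of the 8 lower members stayed lower, against 11.8% of all lower genes. *Lgr5* was at 50.1, 2.87 and 11.2 in controls against 2.13, 0.637 and 0.440 in *Gp130* ecKO, and *Sfrp4* at 10.4, 5.84 and 9.96 against 5.22, 5.63 and 4.88. Per 1000 CPM of endothelial markers each of the 8 lower members overlapped, as all but 2.71% of lower genes did. Against the smooth muscle sum, which spread widely within both groups, 0 of the 14 were apart, against 6.72% of all genes apart in CPM.

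**Figure D5:**
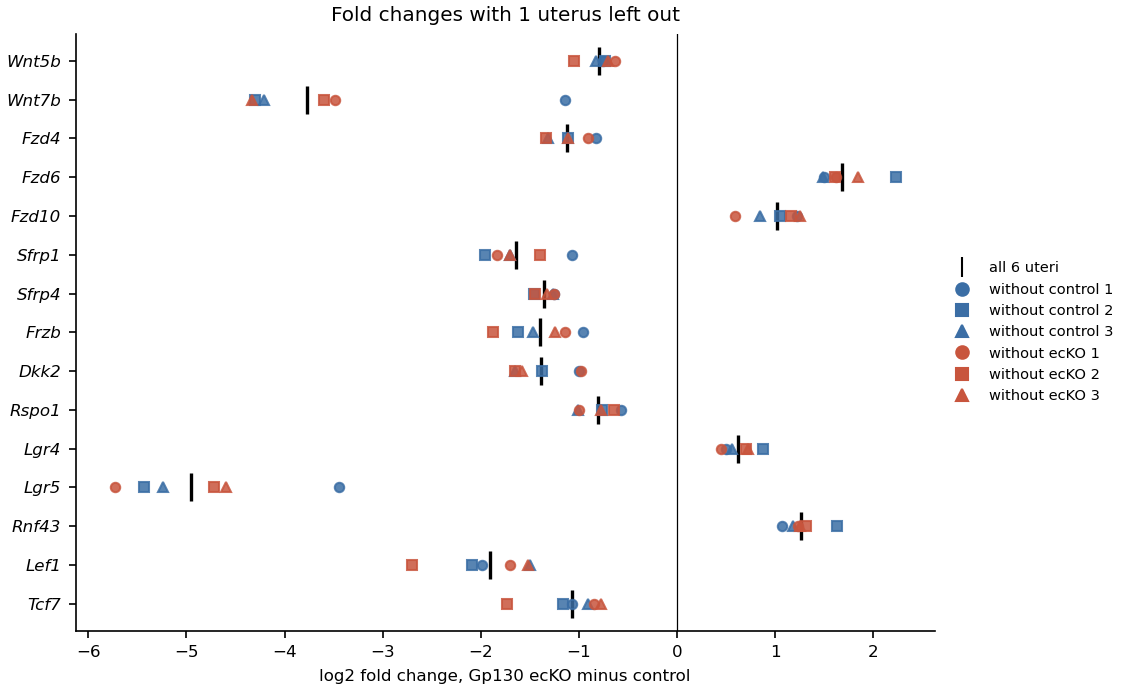
Log2 fold change (horizontal axis) of the 15 members with an unadjusted p under 0.05, from all 6 uteri (black tick) and with 1 uterus left out (symbols, blue for a control and red for a *Gp130* ecKO uterus left out). *Sfrp4* stays between -1.45 and -1.25, while without control 1 *Wnt7b* moves to -1.14 and *Lgr5* to -3.44.

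Beyond the members, 63 further pathway genes were listed by function, of which 51 were tested. None passed the adjusted p and fold rule with the quasi-likelihood test on all uteri. Without control 2 that test called 4, *Gsk3b*, *Bcl9*, *Celsr2* and *Tnfrsf19*, against 5.23% of all tested genes. The log2 fold change of *Tnfrsf19* was 1.13 with all uteri (adjusted p 0.163) and 1.81 without control 2 (adjusted p 0.0243). With all uteri 7 genes were higher and 11 lower at an unadjusted p under 0.05, or 35.3% against the 25.0% of all tested genes. The median log2 fold change was 0.05. Without control 3 the higher and lower genes numbered 3 and 4, and without *Gp130* ecKO 1 they numbered 4 and 4. For these fits too the share of all tested genes is not given. DESeq2 and edgeR's exact test both called 3 of the 51, *Bcl9*, *Celsr2* and *Myc*, a smaller share than the 9.29% and 7.46% of all tested genes that these tests called.

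*Bcl9*, a coactivator that joins beta-catenin in the nucleus, was at 45.3, 71.4 and 43.0 CPM among controls and 194, 147 and 114 among *Gp130* ecKO uteri, with the groups apart (log2 fold change 1.51, SE 0.28, adjusted p 0.0648, DESeq2 adjusted p 1.22e-04). *Celsr2*, a planar polarity cadherin, was at 37.1, 57.8 and 32.1 CPM among controls and 121, 90.9 and 62.6 among *Gp130* ecKO uteri (log2 fold change 1.11, SE 0.31, adjusted p 0.105, DESeq2 adjusted p 0.0184). Both were higher in every *Gp130* ecKO uterus, and *Myc*, a growth regulator and WNT target, was lower in each. *Myc* was at 98.3, 109 and 148 CPM among controls and 51.8, 71.3 and 31.8 among *Gp130* ecKO uteri (log2 fold change -1.20, SE 0.31, adjusted p 0.0956, DESeq2 adjusted p 0.0113). Across all alternatives the adjusted p ran from 1.22e-04 to 0.190 for *Bcl9*, from 0.0184 to 0.296 for *Celsr2* and from 0.0113 to 0.268 for *Myc*.

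Below the 2-fold limit with all uteri, 3 more genes passed a DESeq2 adjusted p of 0.05. The share of all tested genes that passed without the fold limit is not given, so this count has no background beside it. *Gsk3b*, a kinase of the beta-catenin destruction complex, was at 85.0, 145 and 99.5 CPM among controls and 185, 221 and 162 among *Gp130* ecKO uteri (DESeq2 log2 fold change 0.80, adjusted p 0.0383). Without control 2 the quasi-likelihood log2 fold change of *Gsk3b* was past the limit, at 1.07 (adjusted p 0.0431). *Ror2*, a receptor of WNT5A, was at 47.7, 68.2 and 64.2 CPM among controls and 39.7, 24.3 and 27.4 among *Gp130* ecKO uteri (DESeq2 log2 fold change -0.96, adjusted p 0.0124). *Tcf7l1*, a TCF factor that mostly represses, was at 14.5, 16.5 and 11.1 CPM among controls and 8.23, 6.999 and 7.96 among *Gp130* ecKO uteri (DESeq2 log2 fold change -0.85, adjusted p 0.0191). In each of these 3 genes the groups were apart, *Gsk3b* higher and the other two lower in *Gp130* ecKO. Across all alternatives their adjusted p ran from 0.0383 to 0.290, from 0.0124 to 0.189 and from 0.0191 to 0.280, in the order *Gsk3b*, *Ror2* and *Tcf7l1*. By role, and against 12.1% higher and 12.9% lower of all tested genes, the list of other targets had 1 gene higher and 4 lower at an unadjusted p under 0.05 among 7 tested, planar polarity 3 higher and 1 lower among 8, nuclear partners 1 higher and 3 lower among 12, and the dishevelled and destruction complex list 1 higher and 0 lower among 13. Of the other receptors 0 were higher and 2 lower among 4, and of the secretion and extracellular genes 1 was higher and 1 lower among 7. The 6 remaining WNT ligands were all under the filter.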

How the data were processed

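RNA was extracted from uterine tissue and strand-specific libraries were sequenced. The authors trimmed reads with fastp 0.23.2, removed ribosomal RNA reads, aligned with STAR 2.7.10a to GRCm39 and estimated an expected count per gene with RSEM 1.3.3, whose model splits reads that fit several genes. The deposited TPM values are scaled by the authors for effective length and to a fixed sum per uterus. The annotation version and the strand setting of counting are not given in the sources used here.

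The expected counts were rounded, and edgeR 4.0.16 in R 4.3.3 was used. The filterByExpr filter by group left 16605 genes, which were scaled by TMM and compared with glmQLFit (legacy = FALSE) and glmQLFTest, with Benjamini-Hochberg adjustment. Calls needed an adjusted p under 0.05 and more than 2-fold. No covariate was used. DESeq2 1.42.0, edgeR's exact and likelihood ratio tests, other normalizations and filters, a block for the replicate number, counts without rounding, and single uteri left out were alternatives. Totals of 13960748 to 25906443 counts per uterus set the precision, and a count of 0 allows up to 3 counts per library.

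Symbols and coordinates came from GENCODE M39 on GRCm39, which held 56017 of 56748 identifiers. RefSeq promoter windows were placed on GRCm39 by exact match of their sequence. Windows of 75 bases along each member's transcripts were compared with all transcripts, and *Wnt4* alone shared more than 1% of them (1.1%) with another gene. The members and gene lists were chosen with earlier results of these data known. All 48 members are named. Values in every uterus are given for those with an unadjusted p under 0.05 or with groups apart, for the 1 or 2 most abundant of each role, and for some others chosen after their values were seen (*Wnt7a*, *Axin2*). Other pathway genes are named where DESeq2 gave an adjusted p under 0.05 or where the quasi-likelihood test called them without control 2. Marker genes were chosen for naming after their values were seen.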

Additional observations from a re-analysis of the deposited data

How the results depend on the processing

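Under the adjusted p and 2-fold rule, 0 members were called by the quasi-likelihood test, 8 by edgeR's exact test, 8 by its likelihood ratio test and 9 by DESeq2. Of all tested genes the quasi-likelihood test called 0.157%, the exact test 7.46% and DESeq2 9.29%. For the likelihood ratio test that share is not given, so its count is not read as a result about the members. With 1 uterus left out in turn the quasi-likelihood count was 0 to 5, and 5 was reached without control 2, where 5.23% of all tested genes were called. The other normalizations, filters, the legacy form and unrounded counts gave 0. At an unadjusted p under 0.05 the higher members numbered 4 with all uteri and 2 to 5 with 1 left out, and the lower members 11 with all uteri and 5 to 11 with 1 left out. Pathway genes outside the members numbered 7 higher (3 to 9 with 1 left out) and 11 lower (4 to 13). Members whose groups were apart numbered 6 higher (6 to 9) and 8 lower (9 to 13), where fewer uteri make separation easier. For the counts at an unadjusted p and of groups apart with 1 uterus left out, shares of all tested genes are not given. The cause of the other shifts was not tested.

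With the replicate number as a block, 7 members were lower at an unadjusted p under 0.05, 5 higher, and 0 were called. The share of all tested genes under the block is not given. Same-numbered uteri correlated in their deviations from the group means at 0.102, 0.0614 and -0.190, so the numbers were not taken as pairs, and control 1, for example, correlated more with *Gp130* ecKO 3 (0.183).

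Of 624 member values under 16 alternatives, 573 kept their direction and side of the threshold, 30 passed it and 21 had the other sign, in 10 members near 0 or carried by 1 uterus. The log2 fold change of *Wnt4* was 0.00061 without a filter and 0.0796 with the block. That of *Fzd3* was -0.0762 with upper quartile scaling, -0.0044 with a stricter filter and -0.051 with the block. With 1 uterus left out the ranges were -1.26 to 0.0073 for *Wnt2b*, -0.39 to 0.21 for *Wnt4*, -1.46 to 0.20 for *Wnt6*, -0.16 to 0.44 for *Wnt7a*, -1.17 to 0.011 for *Wnt9a*, -0.32 to 0.075 for *Wnt11*, -0.30 to 0.26 for *Fzd3*, -0.22 to 0.11 for *Fzd7*, -0.10 to 0.27 for *Lrp5* and -1.19 to 1.81 for *Lgr6*. Upper quartile scaling moved the median of all genes to -0.11, and members with groups apart and lower then numbered 11. The share of all tested genes apart and lower under that scaling is not given. Depth limits the 9 members under the filter, at most 19 counts in any uterus.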
